A study of Saccharomyces cerevisiae with 5 samples.

Results

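The 10 genes described here make guanine and adenine nucleotides in Saccharomyces cerevisiae or recover them from free bases. They were chosen by name from the gene column of the deposited table of capped RNA 5′ ends, and they are 10 of its 5009 genes and 51 of its 27176 distinct start clusters. Cap analysis of gene expression (CAGE) counts the 5′ ends of capped RNAs, so each tag marks 1 transcription start and a level needs no division by gene length. Levels are in CPM, tags scaled to the total of their library, summed over the clusters that the authors listed for a gene.

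The study grew 2 yeast strains on DEH, the uronate monomer released from alginate, and on other carbon sources. The libraries were BY_DEH+ cells after 3 days in DEH medium, BY_DEH+ cells after an overnight culture in glucose medium, BY_DEH++ cells after 2 days in DEH medium, BY_DEH++ cells after 1 day in mannitol medium and BY_DEH++ cells after an overnight culture in glucose medium. All 5 cultures were precultured on solid YPGA and held 10 mL of an HC-LN-based medium with 1% (w/v) carbon source, shaken at 30 °C. The labels give the strains by name alone, with no genotype, and nothing says whether a strain is 1 clone. Inocula differed (OD600 0.2 and 0.05 for BY_DEH+ in DEH and glucose, then 0.05, 0.02 and 0.05 for BY_DEH++ in DEH, mannitol and glucose), and final densities were 0.63, 0.91, 0.55, 0.79 and 0.95 in the same order. Medium, culture time and density cannot be told apart. The title of the mannitol library names no medium, unlike the titles of the other libraries. Any difference in its preparation could not be told apart from the medium either.

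Each condition had 1 library, so no difference below has a replicate error or a p-value. The intervals are 95% exact intervals for counting error only. Depth, read from the step between low values, was about 9430000 to 19900000 tags, and 10 CPM stood for 94 to 199 reads. The libraries differed in composition. Ribosomal protein genes took 9.47% of all CPM in BY_DEH+ in DEH and 4.42% in BY_DEH+ in glucose, and 15.7%, 26.8% and 3.54% in BY_DEH++ in DEH, mannitol and glucose. The median log2 ratio of all 4904 genes tested was -0.46 for mannitol over glucose, and it lay between -0.22 and 0.32 in the other comparisons, so ratios are best read against those values.

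In yeast, as in other organisms, purine synthesis builds inosine monophosphate (IMP) step by step, and some steps consume one-carbon units carried by folate. IMP then goes either to GMP, through IMP dehydrogenase and GMP synthase, or to AMP, through adenylosuccinate synthase and adenylosuccinate lyase. The yeast factors Bas1 and Bas2 (Pho2) are known to activate most ADE genes and one-carbon genes when adenine is scarce. IMD2 is known for another kind of control, in which the choice of start site within its promoter follows the guanine nucleotide level.

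The hexamer TGACTC is the core bound by Bas1 and by Gcn4. Read on both strands in the 300 bases before the coding start, it was present in 466 of 6020 genes (7.74%) and in 5 of the 10 genes described here, namely GUA1, ADE12, ADE13, ADE1 and ADE17. ADE1 holds it on both strands. The stretches are shown because the same hexamer recurs in one-carbon genes that had low levels outside glucose, of which GCV1 is given as an example. They are the plus strand for GUA1, ADE12, ADE13 and ADE1 and the minus strand for ADE17 and GCV1, all from build R64 (RefSeq), with the hexamer or its reverse complement in capitals.
GUA1 at chrXIII:701505-701540: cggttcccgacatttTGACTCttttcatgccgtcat
ADE12 at chrXIV:234176-234211: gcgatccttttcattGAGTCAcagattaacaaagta
ADE13 at chrXII:844051-844086: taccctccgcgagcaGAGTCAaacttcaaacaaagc
ADE1 at chrI:169134-169169: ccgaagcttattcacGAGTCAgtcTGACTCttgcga
ADE17 at chrXIII:509437-509472: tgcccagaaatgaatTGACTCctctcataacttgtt
GCV1 at chrIV:485488-485523: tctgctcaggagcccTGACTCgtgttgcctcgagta
A match is a description of these letters and not a bound site.

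Levels of the 10 genes reached above 10 CPM in at least 1 library each. The sum over the 10 was 1860 CPM in BY_DEH+ in DEH and 3872 CPM in BY_DEH+ in glucose, and 3059.97, 2397 and 3619 CPM in BY_DEH++ in DEH, mannitol and glucose. GUA1 was the highest of them in both DEH libraries, IMD3 in mannitol and ADE12 in both glucose libraries. IMD2 was the lowest in both DEH libraries and AAH1 in the other 3.

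**Figure D1:**
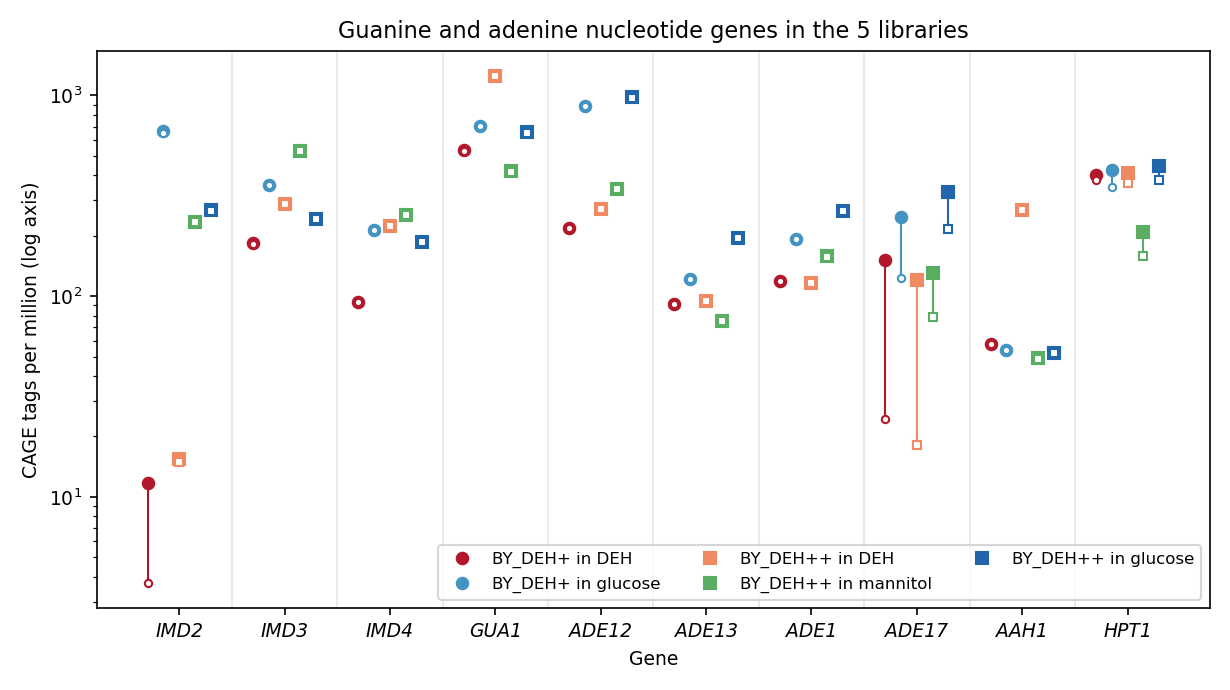
CPM of the 10 genes in the 5 libraries on a log axis. Circles are BY_DEH+ and squares BY_DEH++. Filled symbols sum the clusters that the authors list for the gene, and open symbols sum the clusters from 500 bases before to 100 bases after its coding start. The IMD2 values of the 2 DEH libraries lie far below those of the other 3, and the symbols part mainly for ADE17, HPT1 and IMD2 in BY_DEH+ in DEH.

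IMP dehydrogenase commits IMP to guanine nucleotides, and 3 genes for it, IMD2, IMD3 and IMD4, were measured. IMD2 is on chromosome VIII with its coding region at 554396 to 555967 on the plus strand. Its main cluster lay at its own start, from 262 bases before the A of the coding start to 30 bases after it (chrVIII:554134-554425). IMD2 had 3.74 CPM in that cluster in BY_DEH+ in DEH, against 647 CPM in BY_DEH+ in glucose. In BY_DEH++ the same cluster had 14.9 CPM in DEH and 235 CPM in mannitol, against 266 CPM in glucose. Both DEH libraries were low and did not come near the other 3.

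Summed over all clusters listed for IMD2, the glucose level was 56.7 times the DEH level in BY_DEH+ (47.6 to 68.3) and 17.4 times in BY_DEH++ (15.5 to 19.6). At its own start alone the BY_DEH+ ratio was 173 (127 to 243), because small clusters farther downstream are also listed for it. The largest of those, at chrVIII:557373-557540, held 6.45 CPM in BY_DEH+ in DEH and 8.91 CPM in BY_DEH+ in glucose, and was listed at 0 in the BY_DEH++ libraries. A cluster that overlaps it, at chrVIII:557472-557599, was listed at 0 in both BY_DEH+ libraries and held 0.5 CPM in DEH, 0 in mannitol and 1.88 CPM in glucose in BY_DEH++. Both lie past the end of the IMD2 coding region, and the nearest coding start is that of YHR218W. Mannitol and glucose differed little, with a log2 ratio of -0.19 against -0.46 for all genes.

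Between the strains, IMD2 moved in opposite directions in the 2 media. In glucose BY_DEH++ had 266 CPM and BY_DEH+ 647 CPM at the start of IMD2, a log2 ratio of -1.28. In DEH the level there was 3.99 times higher in BY_DEH++ than in BY_DEH+ (2.87 to 5.71), from 297 and 40 reads. Over all clusters listed for IMD2 the log2 ratios were -1.30 in glucose and 0.37 in DEH, so the difference in DEH did not reach 2-fold there.

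A single deposited cluster of 292 bases spans the whole IMD2 start region, so upstream and downstream starts within it cannot be told apart in this table. Part of the region has a close copy elsewhere, at chrI:227481-227741 on the plus strand. Of 262 bases compared, 243 (92.7%) were identical. Stretches of 25 bases recurred elsewhere in the genome at 32 of 238 positions, and stretches of 50 bases at 0 of 213. A cluster with no gene in the deposited table, at chrI:227496-227726, held 5.14 CPM in BY_DEH+ in DEH and 14.85 CPM in BY_DEH+ in glucose, and 3.67, 5.07 and 3.09 CPM in BY_DEH++ in DEH, mannitol and glucose. In BY_DEH+ in DEH the IMD2 cluster itself held no more than 3.74 CPM. The first 120 bases of the IMD2 cluster (chrVIII:554134-554253, plus strand, build R64, RefSeq) are shown with bases that differ from the copy in capitals.
IMD2 start region: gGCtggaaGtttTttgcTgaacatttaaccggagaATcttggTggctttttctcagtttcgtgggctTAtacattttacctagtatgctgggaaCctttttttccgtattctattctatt

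The other IMP dehydrogenase genes behaved differently. IMD3 had 184 CPM in BY_DEH+ in DEH, against 359.7 CPM in BY_DEH+ in glucose. The BY_DEH++ values were 287 CPM in DEH and 528 CPM in mannitol, against 243 CPM in glucose. The mannitol library was the highest of the 5, at 2.18 times glucose (2.08 to 2.27). The log2 ratio of DEH over mannitol was -0.88, and it passed 2-fold under median-of-ratios scaling (-1.21) and with totals that leave out ribosomal protein genes (-1.08). For DEH over glucose in BY_DEH+ it was -0.96, and -1.05 under median-of-ratios scaling. IMD4 had 93.6 CPM in BY_DEH+ in DEH, against 213 CPM in BY_DEH+ in glucose, a log2 ratio of -1.18. BY_DEH++ cells had 225 CPM in DEH and 253 CPM in mannitol, against 186 CPM in glucose. BY_DEH+ in DEH was the lowest library for both genes, and for DEH over glucose both had opposite signs in the 2 strains.

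Together the 3 genes gave 289 CPM in BY_DEH+ in DEH and 1235 CPM in BY_DEH+ in glucose, and 527, 1015.5 and 697 CPM in BY_DEH++ in DEH, mannitol and glucose. The IMD2 share of that sum was 4.04% in BY_DEH+ in DEH, against 53.6% in BY_DEH+ in glucose. It was 2.93% in BY_DEH++ in DEH and 23.1% in mannitol, against 38.5% in glucose. In the DEH libraries most tags came from IMD3, which held 63.6% in BY_DEH+ and 54.5% in BY_DEH++.

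**Figure D2:**
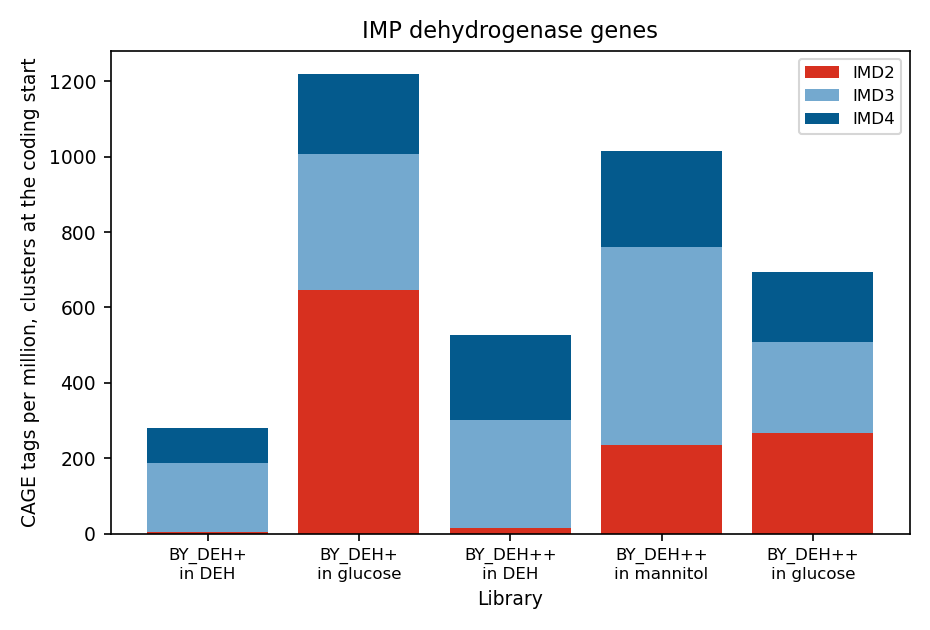
CPM at the coding starts of IMD2, IMD3 and IMD4, stacked for each library. IMD2 is close to absent from both DEH bars, with 1.34% and 2.84% of the height, and makes up 53.1% of the BY_DEH+ glucose bar.

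GMP synthase, encoded by GUA1, makes GMP from the product of IMP dehydrogenase. GUA1 had 533 CPM in BY_DEH+ in DEH, against 708 CPM in BY_DEH+ in glucose. In BY_DEH++ it had 1249.6 CPM in DEH and 419 CPM in mannitol, against 655 CPM in glucose. The BY_DEH++ DEH library stood highest, at 2.98 times mannitol (2.89 to 3.08) and 2.35 times BY_DEH+ in DEH (2.28 to 2.41). The log2 ratio of DEH over glucose was 0.93 in BY_DEH++ and -0.41 in BY_DEH+. The BY_DEH++ value lay just under the 2-fold limit and passed it when libraries were scaled by the median of ratios (1.03).

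On the adenine side, ADE12 encodes adenylosuccinate synthase, the first step from IMP to AMP. ADE12 had 219 CPM in BY_DEH+ in DEH, against 889 CPM in BY_DEH+ in glucose. In BY_DEH++ it had 272 CPM in DEH and 342 CPM in mannitol, against 978 CPM in glucose. Both glucose libraries were well above the other 3. The glucose level was 4.06 times that in DEH in BY_DEH+ (3.88 to 4.25), 3.60 times in BY_DEH++ (3.49 to 3.72), and 2.86 times that in mannitol (2.76 to 2.97). The strains differed by 0.31 in DEH and 0.14 in glucose on the log2 scale.

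ADE13 encodes adenylosuccinate lyase, which acts both in IMP synthesis and after ADE12. It had 90.9 CPM in BY_DEH+ in DEH, against 122 CPM in BY_DEH+ in glucose. The BY_DEH++ libraries had 94.6 CPM in DEH and 75.4 CPM in mannitol, against 195 CPM in glucose. The BY_DEH++ glucose library was the highest. The log2 ratios to glucose were -1.04 for DEH and -1.36 for mannitol in BY_DEH++, and under median-of-ratios scaling both were -0.94, short of 2-fold.

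ADE1 encodes the synthase that joins aspartate to the growing purine ring, and lies on chromosome I. Its level was 118 CPM in BY_DEH+ in DEH, against 192 CPM in BY_DEH+ in glucose. In BY_DEH++ it was 117 CPM in DEH and 158 CPM in mannitol, against 266 CPM in glucose. Within each strain glucose was again highest. In BY_DEH++ the log2 ratio of DEH over glucose was -1.18 and, with totals that leave out ribosomal protein genes, -0.99.

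ADE17 encodes an enzyme, not the only one, of the last steps to IMP, which use a folate-borne one-carbon unit. Its deposited values mix start clusters of different genes. The cluster at its own coding start (chrXIII:509287-509369, minus strand) ends 7 bases before the coding start. A second cluster listed for it, at chrXIII:510237-510420, lies at positions -1140 to -957 from the coding start, and the nearest coding start to it is that of RPL15B, a ribosomal protein gene. The own-start cluster held 24.3 CPM in BY_DEH+ in DEH, against 121 CPM in BY_DEH+ in glucose. In BY_DEH++ it held 18.1 CPM in DEH and 78.2 CPM in mannitol, against 217 CPM in glucose. The DEH libraries were lowest, mannitol lay between, and both glucose libraries were highest.

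The cluster at RPL15B held 122 CPM in BY_DEH+ in DEH and 124 CPM in BY_DEH+ in glucose, and 99.5, 50.95 and 107 CPM in BY_DEH++ in DEH, mannitol and glucose. The share of ADE17's listed tags at its own start was therefore 16% in BY_DEH+ in DEH (14.2 to 17.8), against 48.9% in BY_DEH+ in glucose (46.9 to 51). In BY_DEH++ it was 15% in DEH (13.6 to 16.4) and 60.3% in mannitol (57.6 to 62.9), against 65.7% in glucose (64.3 to 67.1). Over all listed clusters, glucose was 1.63 times DEH in BY_DEH+ (1.53 to 1.74) and 2.73 times in BY_DEH++ (2.60 to 2.87). Over the start window, which sums all clusters from 500 bases before to 100 bases after the coding start, those ratios were 5.05 (4.42 to 5.81) and 12 (10.75 to 13.4). The 120 bases before the own-start cluster hold the TGACTC of ADE17, in capitals, and are shown from chrXIII:509370-509489, minus strand, build R64 (RefSeq).
ADE17 upstream region: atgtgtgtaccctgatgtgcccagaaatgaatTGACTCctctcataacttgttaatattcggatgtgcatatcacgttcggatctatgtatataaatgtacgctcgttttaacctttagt

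**Figure D3:**
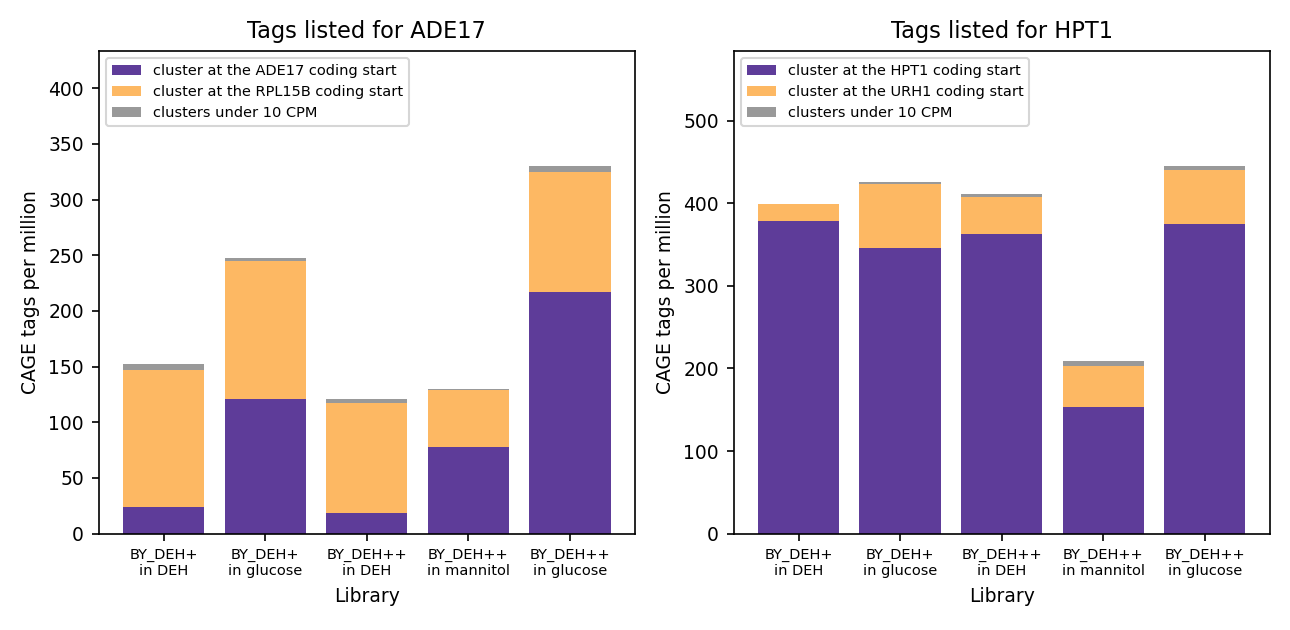
CPM listed for ADE17 (left) and HPT1 (right) in each library, stacked by start cluster. For ADE17 the part at its own start shrinks to 24.3 and 18.1 CPM in the DEH libraries while the part at RPL15B stays near 100 CPM or above, except in mannitol (50.95 CPM). For HPT1 most of the bar is at its own start in all 5 libraries.

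Salvage of free bases was represented by AAH1 and HPT1. AAH1 encodes adenine deaminase, which turns adenine into hypoxanthine. AAH1 had 57.7 CPM in BY_DEH+ in DEH, against 53.7 CPM in BY_DEH+ in glucose. In BY_DEH++ it had 268 CPM in DEH and 49.4 CPM in mannitol, against 52.1 CPM in glucose. A single library, BY_DEH++ in DEH, was high, and the other 4 lay between 49.4 and 57.7 CPM. In BY_DEH++ its DEH level was 5.15 times glucose (4.76 to 5.59) and 5.43 times mannitol (4.96 to 5.95), and it was 4.65 times that of BY_DEH+ in DEH (4.27 to 5.05). For BY_DEH+ the DEH to glucose ratio was 1.08, with an interval that includes 1 (0.956 to 1.21).

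HPT1 encodes the phosphoribosyltransferase that turns hypoxanthine and guanine into IMP and GMP. At its own start (chrIV:1269862-1270107, plus strand) it had 378 CPM in BY_DEH+ in DEH, against 346 CPM in BY_DEH+ in glucose. For BY_DEH++ the levels were 363 CPM in DEH and 154 CPM in mannitol, against 375 CPM in glucose. The mannitol library was low and the other 4 were close together. A second cluster listed for HPT1, whose nearest coding start is that of URH1, a nucleoside hydrolase gene, held 20.7 CPM in BY_DEH+ in DEH and 77.1 CPM in BY_DEH+ in glucose. In BY_DEH++ that cluster held 43.8 CPM in DEH and 49.8 CPM in mannitol, against 65.5 CPM in glucose. The own-start share ran from 73.5% in BY_DEH++ in mannitol to 94.7% in BY_DEH+ in DEH. Over all listed clusters glucose was 2.13 times mannitol (2.03 to 2.24). The log2 ratio of mannitol over glucose was -1.09, and -0.66 under median-of-ratios scaling.

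Counted at 2-fold on the log2(CPM + 1) scale, which understates the change of low genes, DEH over glucose in BY_DEH+ put 3 of the 10 genes lower (IMD2, IMD4 and ADE12) and 0 higher, while 9.97% of all genes tested were lower and 10.5% higher. The median of the 10 was -0.69 and that of all genes 0.12. With start-window sums ADE17 was lower as well, where the background was 10.6%. For DEH over glucose in BY_DEH++, 5 of 10 were lower (IMD2, ADE12, ADE13, ADE1 and ADE17) and 1 was higher (AAH1), where 10.8% and 8.69% of all genes were. The median of the 10 was -0.58, and that of all genes -0.11.

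For mannitol over glucose in BY_DEH++, 4 of 10 were lower (ADE12, ADE13, ADE17 and HPT1) and 1 was higher (IMD3). The background there was 27.0% lower and 9.89% higher, and the medians were -0.70 for the 10 and -0.46 for all genes. After median-of-ratios scaling ADE13, ADE17 and HPT1 were no longer past 2-fold. DEH over mannitol in BY_DEH++ gave 2 higher (AAH1 and GUA1) and 1 lower (IMD2), beside 20.7% and 9.07% of all genes, with medians of -0.13 for the 10 and 0.32 for all genes. With start-window sums HPT1 was also higher and ADE17 also lower, beside 22.5% and 9.23% of genes. The DEH and mannitol comparisons in BY_DEH++ share the glucose or the DEH library, so they are set side by side and not counted as separate evidence.

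Between strains in DEH, 3 of 10 were higher in BY_DEH++ (AAH1, GUA1 and IMD4) and 0 lower, while 5.22% of all genes were higher and 8.52% lower, with medians of 0.34 for the 10 and -0.22 for all genes. With start-window sums IMD2 was also higher, beside 5.99% of genes. In glucose 0 of 10 were higher and 1 was lower in BY_DEH++ (IMD2), beside 0.673% and 1.12% of all genes, and the median of the 10 was 0.01 where that of all genes was -0.05. At 4-fold or more in either direction, DEH over glucose called 2 of the 10 in BY_DEH+ (IMD2 and ADE12, beside 5.75% of all genes) and 2 in BY_DEH++ (IMD2 and AAH1, beside 5.51%). Mannitol over glucose called 0 (10.5%), DEH over mannitol 2 (IMD2 and AAH1, 6.53%), BY_DEH++ over BY_DEH+ in DEH 1 (AAH1, 2.77%), and the same strains in glucose 0 (0.367%). These 4-fold counts use listed clusters. With start-window sums ADE17 also passed 4-fold for DEH over glucose in BY_DEH+ (-2.29) and BY_DEH++ (-3.51), and for DEH over mannitol (-2.06). The share of all genes past 4-fold with those sums is not given here.

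The one-carbon genes feed the purine ring with folate-borne carbon. Of 8 measured, 6 were lower in DEH than in glucose in BY_DEH+ and 0 higher, where 9.97% of all genes were lower and 10.5% higher. In BY_DEH++ 6 were lower and 1 higher in DEH, beside 10.8% and 8.69% of all genes, and 5 lower and 1 higher in mannitol, beside 27.0% and 9.89%. The list medians were -1.52, -2.36 and -1.10 in those 3 comparisons, and those of all genes 0.12, -0.11 and -0.46. The 6 lower genes, ADE3, SHM2, MTD1, GCV1, GCV2 and GCV3, are also the 6 of the 8 with TGACTC in the 300 bases before the coding start. The mannitol comparison called all of them except GCV3, and with start-window sums ADE3 was not called either. Median-of-ratios scaling moved the median of all genes for mannitol over glucose from -0.46 to -0.04, and the calls of this list were not repeated under it. The hexamer also occurred in genes of other lists that were not lower, given below.

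GCV1, for a subunit of the mitochondrial glycine cleavage complex, had 29.6 CPM in BY_DEH+ in DEH, against 262 CPM in BY_DEH+ in glucose. In BY_DEH++ GCV1 had 11.2 CPM in DEH and 155 CPM in mannitol, against 420.0 CPM in glucose. The order DEH, mannitol, glucose in BY_DEH++ is the same as that of the ADE17 own-start cluster. It also held for IMD2, ADE12, ADE1, ADE3, ADE5,7, GCV2, GCV3, SHM2, MTD1, FCY21 and URA10, among others. The order is thus not particular to GCV1 and ADE17, and the share of all genes that have it was not counted. GCV2, for another subunit, had 72.5 CPM in BY_DEH+ in DEH, against 313 CPM in BY_DEH+ in glucose, and 32.5 CPM in DEH and 198 CPM in mannitol, against 467 CPM in glucose, in BY_DEH++.

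SHM2, for the cytosolic serine hydroxymethyltransferase, had 269 CPM in BY_DEH+ in DEH, against 727 CPM in BY_DEH+ in glucose. In BY_DEH++ SHM2 had 201 CPM in DEH and 633 CPM in mannitol, against 1374 CPM in glucose. MTD1, for a cytosolic methylenetetrahydrofolate dehydrogenase, had 43.2 CPM in BY_DEH+ in DEH, against 132 CPM in BY_DEH+ in glucose, and 32.0 CPM in DEH and 60.1 CPM in mannitol, against 153 CPM in glucose, in BY_DEH++. Both genes were highest in glucose in each strain. MIS1, for the mitochondrial C1-tetrahydrofolate synthase and named after its values were seen, went the other way, with 138 CPM in DEH and 107 CPM in mannitol, against 36.1 CPM in glucose, in BY_DEH++.

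**Figure D4:**
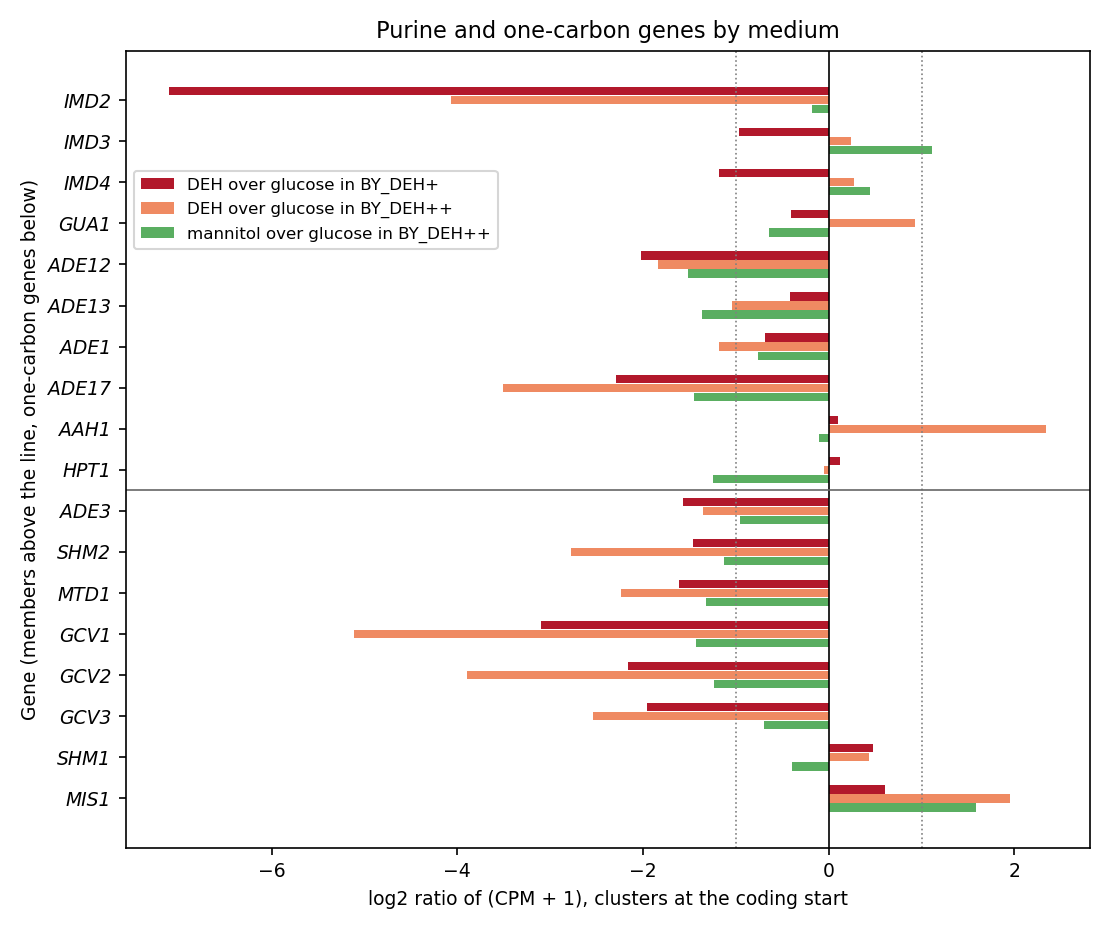
The log2 ratio of (CPM + 1) over clusters near the coding start for the 10 genes (above the line) and the 8 one-carbon genes (below it), for DEH over glucose in BY_DEH+ and BY_DEH++ and mannitol over glucose in BY_DEH++. Dotted lines mark 2-fold. IMD2 reaches -7.10 and GCV1 -5.11, while AAH1 in BY_DEH++ in DEH reaches 2.34.

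The 5 genes described here with TGACTC did not all move alike. The start-window log2 ratio of DEH over glucose in BY_DEH++ was -3.51 for ADE17, -1.84 for ADE12, -1.18 for ADE1 and -1.04 for ADE13, and 0.93 for GUA1. Of the 5 without it, IMD2 was lower (-4.07), AAH1 higher (2.34), and IMD3, IMD4 and HPT1 lay within 2-fold. In BY_DEH+ the same sums put ADE12 and ADE17 lower among genes with the hexamer, and IMD2 and IMD4 lower among those without. There ADE1 was at -0.69, ADE13 at -0.42 and GUA1 at -0.41, and 10.6% of all genes were lower. TGACTC was also in 4 of 6 other purine synthesis genes (ADE2, ADE5,7, ADE6, ADE8) and 4 of 14 salvage genes (APT1, ADK2, GUD1, XPT1). It was in 3 of 15 pyrimidine genes (URA2, URA4, URA10). Over the start window, DEH over glucose in BY_DEH++ put ADE5,7, ADE8, URA2 and URA10 of these lower and APT1 higher. Of all genes, 11.8% were lower and 9.12% higher. The rest lay within 2-fold, except ADE2, which did not pass the filter. For URA2 the start window held 41.1 CPM in DEH against 121 CPM in glucose in BY_DEH++. Its listed clusters went the other way, with 645 CPM in DEH against 349 CPM in glucose. With 1 library a group this is a description of these genes only.

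Other genes of purine synthesis were also counted. Of the 6 listed, 5 passed the 10 CPM filter, namely ADE4, ADE5,7, ADE6, ADE8 and ADE16, and their median log2 ratio was -0.81 for DEH over glucose in BY_DEH+ (0.12 for all genes), with 0 past 2-fold. In BY_DEH++ the median was -0.79 for DEH (-0.11 for all genes), with 2 of 5 lower (ADE5,7 and ADE8) beside 10.8% of all genes. For mannitol it was -0.96 (-0.46 for all genes), with 2 of 5 lower (ADE8 and ADE16) beside 27.0%. ADE2, for a carboxylase of the same pathway and mentioned after its values were seen, was listed at 0 in 3 libraries and at 0.53 and 0.90 CPM in the glucose libraries of BY_DEH+ and BY_DEH++. Of 14 salvage and interconversion genes, 0 were higher and 2 lower in DEH than in glucose in BY_DEH+, beside 10.5% and 9.97% of all genes. In BY_DEH++ 0 were higher and 1 lower in DEH, beside 8.69% and 10.8%. Mannitol over glucose gave 1 higher and 2 lower, beside 9.89% and 27.0% of all genes. These counts of lower genes are near or below the background. With start-window sums APT1 was higher in BY_DEH++ both in DEH and in mannitol, beside 9.12% and 9.86% of all genes. Among 5 genes for synthetases of phosphoribosyl pyrophosphate, the sugar donor for purines, 0 passed 2-fold for DEH over glucose in BY_DEH+ and 1 was higher in DEH in BY_DEH++, beside 8.69% of all genes.

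Of 7 listed regulators and transporters, 6 passed the filter. For DEH over glucose in BY_DEH+, 1 was higher (SAF1) and 1 lower (FCY21), beside 10.5% and 9.97% of all genes. In BY_DEH++ 0 were higher and 0 lower in DEH, beside 8.69% and 10.8%. Mannitol over glucose put 0 higher and 2 lower (BAS1 and FCY2), beside 9.89% and 27.0% of all genes. FCY2, for the permease that takes up purine bases and cytosine, had 1231 CPM in BY_DEH+ in DEH, against 973 CPM in BY_DEH+ in glucose. In BY_DEH++ FCY2 had 1360.07 CPM in DEH and 208 CPM in mannitol, against 1057 CPM in glucose, so that mannitol alone was low, as it was for HPT1. Its relative FCY21 had 5.23 CPM in BY_DEH+ in DEH, against 29.8 CPM in BY_DEH+ in glucose, and 10.8 CPM in DEH and 19.1 CPM in mannitol, against 21.9 CPM in glucose, in BY_DEH++.

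The genes whose profiles over the 5 libraries were nearest to that of IMD2, by Euclidean distance between centred log2(CPM + 1) values, were SST2, TIR1, HMS1, MF(ALPHA)2 and PRM9, at distances of 0.88 to 1.73 where the median over all genes was 5.37. SST2, which acts in the mating pheromone response, had 2.43 CPM in BY_DEH+ in DEH and 120 CPM in BY_DEH+ in glucose, and 3.02, 73.3 and 111 CPM in BY_DEH++ in DEH, mannitol and glucose. TIR1, for a cell wall mannoprotein, was listed at 0 in both DEH libraries and had 70.9 CPM in BY_DEH+ in glucose, and 21.1 CPM in mannitol and 46.4 CPM in glucose in BY_DEH++. Nearest to AAH1 were YHB1, RPP0, ATP4, NSR1 and ADH6, at 0.68 to 0.94 with a median over all genes of 2.36. YHB1, for a flavohemoglobin, had 205 CPM in BY_DEH+ in DEH and 214 CPM in BY_DEH+ in glucose, and 1155, 298 and 306 CPM in BY_DEH++ in DEH, mannitol and glucose. These points share 5 libraries and their depth, and nearness is a description.

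The remaining clusters of the 10 genes were small. Of 51 clusters, 12 reached 10 CPM in at least 1 library and 32 stayed under 2 CPM in all of them. ADE17 and HPT1 had 2 of the 12 each and the other 8 genes 1 each. The strand of the gene was matched by 50 of the 51, and 7 were also listed for another gene.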

How the data were processed

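CAGE libraries were made by cap trapping and sequenced on a NextSeq500, per the labels' protocols. BWA, HISAT2 and mm9 are named without roles, per the submitters' processing notes. Sequence names of the deposited clusters match yeast build R64, which was used here. The deposited values are normalised signal, scaled by the authors to CPM per consensus cluster. They were assumed to be CPM and recorded as signal because clusters listed for several genes are repeated. The clustering tool and the rule for assigning genes are not given in the sources used here.

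Each of 27176 distinct clusters was counted 1 time per gene. Genes with 10 CPM or more in at least 1 library were compared as log2 ratios of CPM + 1 and called at 2-fold, with no test, since each group has 1 library. The CPM of 1 read (0.0503 to 0.106) was taken from the steps of low values, of which 99.1% to 100% under 10 CPM were whole within 0.15 of a read. It served only for the counting intervals, which ignore PCR duplicates. No count test was run. Cluster starts were shifted by 1 base, with which 65.7% of 204 clusters of 1 base began on a purine after a pyrimidine, against 7.84% without it. Own-start values are those of the single main cluster at a coding start, and start-window values sum the clusters from 500 bases before to 100 bases after the nearest coding start. Alternatives were other pseudocounts, scalings, fold limits and cluster rules. Of these steps, only the 2-fold calls and the counting intervals were tested on simulated data.

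Members and gene lists were chosen with earlier results of these data known. All 10 members are named, other listed genes at 4-fold or more in a comparison of media, and the 5 profiles nearest to IMD2 and to AAH1. ADE2, ADE3, MIS1 and the listed genes named at 2-fold with a count of 5 or fewer were named after their values were seen. The same holds for genes of other lists named for TGACTC. Sequences are from RefSeq. Python 3.11.15, NumPy 2.4.6, pandas 2.3.3, SciPy 1.17.1 and Biopython 1.88 were used.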

Additional observations from a re-analysis of the deposited data

Results flagged for a closer look

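For 3 genes, DEH over glucose had opposite signs in the 2 strains. IMD3 had a log2 ratio of 0.24 in BY_DEH++ and -0.96 in BY_DEH+. For IMD4 the values were 0.27 in BY_DEH++ and -1.18 in BY_DEH+, and for GUA1 they were 0.93 in BY_DEH++ and -0.41 in BY_DEH+. The signs held under both other scalings. With 1 library each, these differences were not tested. The DEH over glucose log2 ratios of the strains lay 1.20, 1.45 and 1.34 apart for IMD3, IMD4 and GUA1. Over listed clusters they lay further apart for AAH1 (2.24) and IMD2 (1.68). IMD2 was lower in DEH in both strains. At its own start the values were -7.10 in BY_DEH+ and -4.06 in BY_DEH++, further apart than over listed clusters and than those of AAH1. For AAH1 the BY_DEH+ value was 0.10, and the interval of that ratio includes 1.

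A start cluster with no gene in the deposited table, at the copy of the IMD2 start region on chromosome I, stood at 14.85 CPM in BY_DEH+ in glucose, where 3 reads correspond to 0.318 CPM. It was picked out because no comparison uses it.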

How the results depend on the processing

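Of 21 gene calls at 2-fold over the 6 comparisons, 20 were kept with a pseudocount of 10 CPM, 21 with 0.1 CPM, 17 with median-of-ratios scaling, 16 with totals that leave out ribosomal protein genes, 21 with clusters in the window at the coding start and 20 with the highest cluster alone. No call changed sign. Calls gained were 3 with median-of-ratios scaling (IMD3 for DEH over glucose in BY_DEH+ and for DEH over mannitol, GUA1 for DEH over glucose in BY_DEH++), 2 without ribosomal protein genes (the last 2 of these), 4 with the window, 2 with the highest cluster and 0 with either pseudocount. Both scalings left 2 genes called for mannitol over glucose, where 5 were called as reported. The window at the coding start gave 5 called genes for DEH over mannitol, against 3. A 4-fold limit gave 2 for DEH over glucose in BY_DEH++, 0 for mannitol over glucose, 1 for BY_DEH++ over BY_DEH+ in DEH and 0 for the same strains in glucose. The share of ADE17 tags at its own start became 100% in the libraries with its lowest and highest share when only the window was counted. The lowest HPT1 share became 96.5% and the highest 100% in that window, and the lowest became 75.5% when only clusters of 10 CPM or more were counted. The window and the cluster minimum leave out the neighbours' or the small clusters by construction. Depth limits IMD2 in BY_DEH+ in DEH most, with 40 reads at its own start. No paired analysis was possible because each group has 1 library.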

Other observations

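FUI1, the uridine permease gene, had 146 CPM in BY_DEH+ in DEH, against 38.9 CPM in BY_DEH+ in glucose. In BY_DEH++ FUI1 had 256 CPM in DEH and 187 CPM in mannitol, against 34.0 CPM in glucose, so glucose was lowest in both strains. URA10, the minor orotate phosphoribosyltransferase gene, had 174 CPM in BY_DEH+ in DEH, against 350.5 CPM in BY_DEH+ in glucose, and 81.6 CPM in DEH and 123 CPM in mannitol, against 458 CPM in glucose, in BY_DEH++. Glucose was thus highest for URA10. URA3, for orotidine monophosphate decarboxylase, had 36.1 CPM in BY_DEH+ in DEH, against 25.6 CPM in BY_DEH+ in glucose, and 34.7 CPM in DEH and 86.6 CPM in mannitol, against 19.1 CPM in glucose, in BY_DEH++. No cluster was assigned to URA3 in the window at its coding start, so these tags do not mark starts there. Of 15 pyrimidine genes, 2 were higher and 1 lower in DEH than in glucose in BY_DEH+, beside 10.5% and 9.97% of all genes, 4 and 2 in BY_DEH++, beside 8.69% and 10.8%, and 4 and 4 for mannitol over glucose, beside 9.89% and 27.0%. Most of these counts are near the background, the higher ones in BY_DEH++ excepted. The count includes DCD1, whose large listed cluster lies away from its coding start, and DCD1 had 11.3 to 31.7 CPM over the 5 libraries at the coding start.

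Ribonucleotide reductase makes deoxynucleotides for DNA synthesis. RNR2, for its small subunit, had 2097 CPM in BY_DEH+ in DEH, against 516 CPM in BY_DEH+ in glucose. In BY_DEH++ RNR2 had 1478 CPM in DEH and 716 CPM in mannitol, against 382 CPM in glucose. Both DEH libraries were highest. RNR3, for a damage-induced large subunit, stayed between 1.1 and 12.9 CPM in the 5 libraries. RNR1 went the other way from RNR2 in BY_DEH+, with 40.45 CPM in DEH against 86.0 CPM in glucose. Of the 4 genes listed, 2 were higher and 1 lower in DEH than in glucose in BY_DEH+, beside 10.5% and 9.97% of all genes. In BY_DEH++ 1 was higher and 1 lower in DEH, beside 8.69% and 10.8%. Mannitol over glucose also gave 1 higher and 1 lower, beside 9.89% and 27.0%.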
